A study of Homo sapiens with 12 samples.

Results

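The 9 genes described here belong to 3 families of growth-restraining stress genes: GADD45A, GADD45B and GADD45G; BTG1, BTG2, BTG3 and TOB1; and the polo-like kinases PLK2 and PLK3. They were chosen by gene symbol, as members of these families and with earlier results of these data known, and all 9 were found among the 55765 rows of each of the 4 tables. The cells were HCA2 (MJ90), an established line of human skin fibroblasts, and expressed 1 of a pair of doxycycline-inducible hairpins. The control hairpin targets luciferase (shLuc) and the other targets FBXO22 (shFbxo22), the substrate-binding subunit of a ubiquitin ligase. Young cells were at low passage and senescent cells had received 10 Gy of ionizing radiation, so that 2 hairpins and 2 states made 4 groups of 3 libraries. The irradiation protocol is attached to every sample, and the condition label assigns it to the senescent cells only. All were grown with 10% fetal bovine serum. Separate cultures are not stated, and p-values then cover only the spread between libraries, which may be technical.

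GADD45 proteins are small nuclear proteins made after DNA damage and other stress. They bind the cyclin-dependent kinase CDK1, the replication clamp PCNA and the kinase MAP3K4, which feeds the p38 and JNK pathways. BTG and TOB proteins share a domain that binds the CCR4-NOT deadenylase, the complex that shortens poly(A) tails, and they slow cell division when overproduced. PLK2 and PLK3 are stress-responsive relatives of the mitotic kinase PLK1. GADD45A, BTG2, PLK2 and PLK3 are known targets of the tumour suppressor p53, whose activity rises after radiation.

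The tables hold group comparisons and no values per library. Levels are therefore given as reconstructed group means in normalized counts, each the average of 2 estimates from the authors' deposited tables, with no error of their own. For 7 of the genes both estimates lay within 3.22% of each other. For BTG2 the largest gap was 18.0% and for GADD45G 45.9%, both at low counts. Levels are compared between groups of 1 gene and not between genes. Errors on log2 fold changes are standard errors.

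The targeted transcript went against its label in 1 group. FBXO22 had group means of 438 in young and 371 in senescent shLuc cells, 254 in young shFbxo22 cells and 746 in the libraries labelled shFbxo22 senescent. That last group is therefore called by its label, and no direction below is tied to the amount of FBXO22 transcript. The fibroblast label was met, with all 8 fibroblast markers present and COL1A2 highest at a base mean (the authors' mean over the 6 libraries of a table) of up to 228524 in the authors' deposited tables. The summed group means of the 8 markers ranged from 566293 to 648097, a sum carried by COL1A2 and VIM. Single markers moved more: in shLuc senescence DCN and LUM rose by 2.38 ± 0.09 and 1.53 ± 0.10 (log2) and THY1 was at -0.84 ± 0.09 in the authors' deposited table. Between hairpins in young cells DCN and LUM were higher by 2.10 ± 0.12 and 1.38 ± 0.11 with shFbxo22 in the authors' deposited table. With senescence in shFbxo22, 0 of the 8 were called higher and 5 lower, PDGFRB at -0.76 ± 0.09 among them. Between hairpins in senescent cells 2 were higher and 3 lower, with PDGFRB at -1.03 ± 0.09 and DCN at -0.65 ± 0.08. Of all genes tested, 17.7% and 40.1% were called in these 2 comparisons. Keratinocyte, melanocyte and leukocyte marker sums ranged over the groups from 41.7 to 53.1, 25.8 to 37.3 and 45.7 to 64.9. The sum of 3 endothelial markers was 515 in young and 250 in senescent shLuc cells, 149 in young shFbxo22 cells and 36.9 in the libraries labelled shFbxo22 senescent. KDR and VWF made up that sum, while CDH5, a defining endothelial gene, had a base mean of at most 0.166 in the authors' deposited tables. The part of these marker changes in the results below was not tested. RNA was measured in bulk, so fewer expressing cells and less RNA per cell cannot be told apart.

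Promoters of 8 of the 9 genes were found in the RefSeq promoter table (GRCh38.p14). Shown are the 250 bases before the start of BTG2, which had the widest range of levels, of PLK2, which held the p53 match, and of BTG1 and GADD45B, whose senescence responses in shLuc went in opposite directions. Capitals mark matches, on either strand, to the p53 half-site, to TGACG (the core of the cyclic AMP response element) or to CCAAT. The motifs do not overlap in these windows. BTG2 is at chr1:203305269-203305518 on the plus strand, PLK2 at chr5:58460087-58460336 on the minus strand, BTG1 at chr12:92145847-92146096 on the minus strand and GADD45B at chr19:2475877-2476126 on the plus strand.
BTG2: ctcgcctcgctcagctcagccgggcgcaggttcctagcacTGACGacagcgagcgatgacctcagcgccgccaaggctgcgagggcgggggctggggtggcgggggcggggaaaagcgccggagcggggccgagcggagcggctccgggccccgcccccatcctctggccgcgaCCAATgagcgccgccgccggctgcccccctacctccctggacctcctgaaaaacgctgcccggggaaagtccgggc
PLK2: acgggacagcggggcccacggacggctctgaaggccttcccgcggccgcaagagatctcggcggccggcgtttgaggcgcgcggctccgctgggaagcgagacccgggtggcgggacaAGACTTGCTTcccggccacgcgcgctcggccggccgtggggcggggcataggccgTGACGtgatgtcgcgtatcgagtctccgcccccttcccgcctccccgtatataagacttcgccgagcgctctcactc
BTG1: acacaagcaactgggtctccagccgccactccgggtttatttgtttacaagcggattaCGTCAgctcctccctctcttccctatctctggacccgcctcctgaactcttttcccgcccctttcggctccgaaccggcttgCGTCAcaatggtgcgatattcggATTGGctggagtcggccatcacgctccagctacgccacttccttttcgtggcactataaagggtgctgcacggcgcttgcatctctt
GADD45B: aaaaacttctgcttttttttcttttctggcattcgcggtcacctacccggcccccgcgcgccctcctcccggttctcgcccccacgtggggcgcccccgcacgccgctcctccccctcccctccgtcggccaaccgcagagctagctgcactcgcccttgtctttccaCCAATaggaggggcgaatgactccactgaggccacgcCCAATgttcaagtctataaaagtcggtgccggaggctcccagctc

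PLK2 held the sole exact p53 half-site among the 8 genes, from 132 to 123 bases before its start, against 5.57% of 35116 promoter windows of the same length. TGACG lay before BTG1 (2 matches), BTG2, PLK2 and TOB1, against 21.2% of all windows. CCAAT lay before GADD45B (2 matches), GADD45G, BTG1, BTG2 and TOB1, against 32.0% of all windows. TOB1 has 2 windows in the table, and the matches lie in 1 of them; the other holds none of the 3 motifs. The counts are per gene and the shares per window. The motifs were chosen after these promoters had been read, so setting the counts beside the shares is no test. Neither BTG3 nor PLK3 had a match to any of the 3 motifs.

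**Figure D1:**
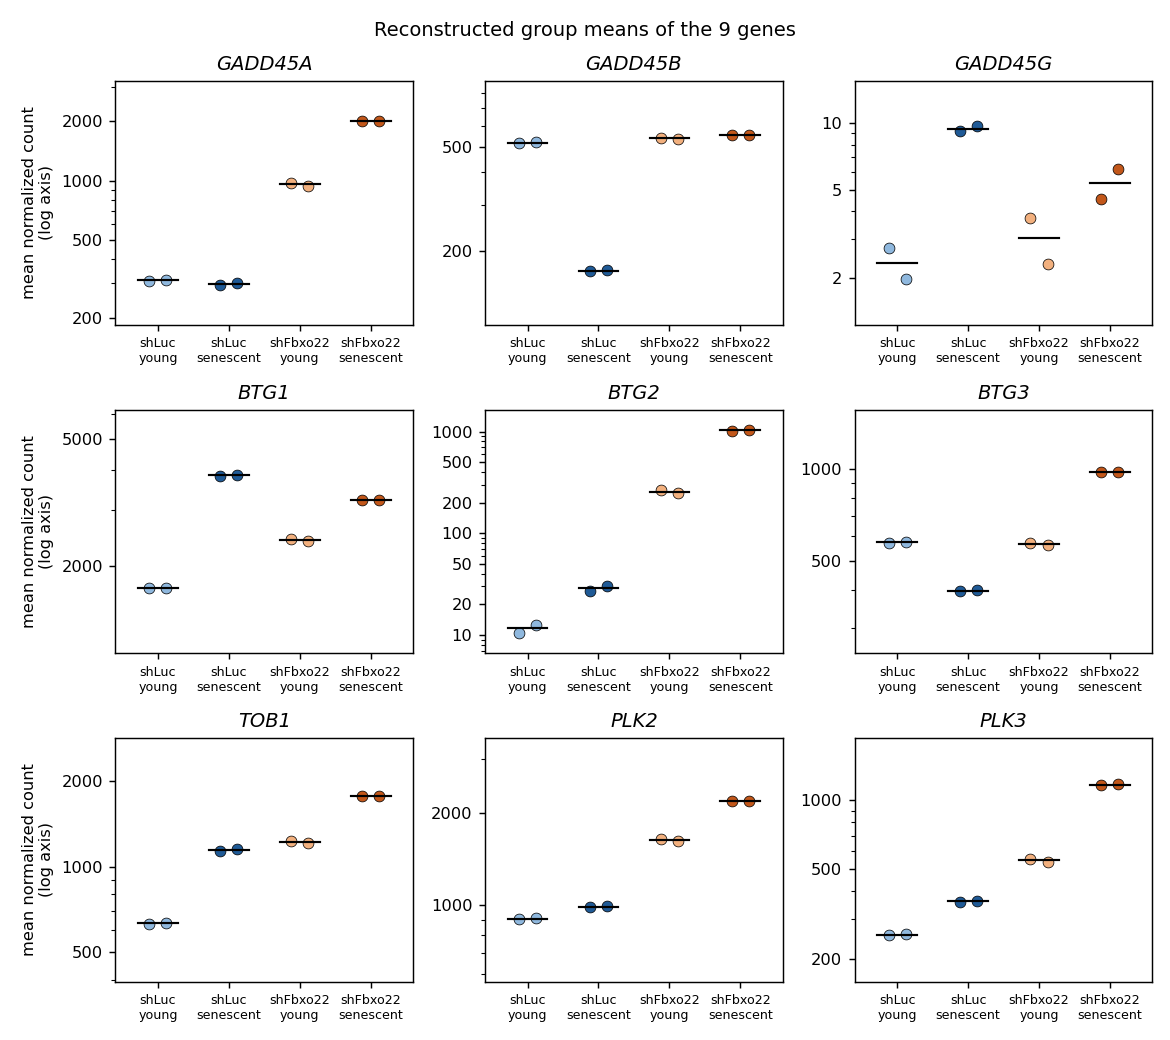
Group means of the 9 genes in normalized counts (log axis, scaled for each gene) in the 4 groups; the 2 points are the estimates from the 2 tables that hold the group and the line is their average. BTG2 climbs from 11.6 in young shLuc cells to 1027 in the libraries labelled shFbxo22 senescent, while GADD45B is low in senescent shLuc cells alone.

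Among the GADD45 genes, GADD45A was higher with shFbxo22 in both states, and GADD45B was low in irradiated control cells. GADD45A, the p53-responsive member, had group means of 311 in young and 298 in senescent shLuc cells, 955 in young shFbxo22 cells and 2003 in the libraries labelled shFbxo22 senescent. Both shLuc groups were low and both shFbxo22 groups high. In shLuc the senescence log2 fold change was -0.06 ± 0.15 in the authors' deposited table and did not pass (DESeq2 Wald test, adjusted p = 0.783, 95% interval from -0.36 to 0.24). In the libraries labelled shFbxo22 it rose by 1.05 ± 0.12 on the log2 scale in the authors' deposited table (adjusted p = 7.2e-18). Between hairpins GADD45A was higher with shFbxo22 by 1.59 ± 0.13 in young and 2.74 ± 0.12 in senescent cells in the authors' deposited tables (adjusted p = 7.18e-32 and 2.74e-107), the second being 6.66-fold.

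GADD45B, which stress cytokines and TGF-beta are known to induce, had group means of 517 in young and 168 in senescent shLuc cells, 539 in young shFbxo22 cells and 554 in the libraries labelled shFbxo22 senescent. A single group, senescent shLuc, stood apart, 3.08-fold below young shLuc. Its log2 fold change there was -1.62 ± 0.17 in the authors' deposited table (adjusted p = 1.59e-21). With shFbxo22 the authors' deposited table gave 0.04 ± 0.12, which did not pass (adjusted p = 0.907; 95% interval from -0.20 to 0.28). The hairpins did not pass in young cells either, at 0.05 ± 0.14 in the authors' deposited table (adjusted p = 0.832). In senescent cells the libraries labelled shFbxo22 were higher by 1.71 ± 0.16 in the authors' deposited table (adjusted p = 1.21e-26).

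GADD45G was close to the detection limit. Its base means ran from 2.15 to 7.95 normalized counts over the 4 authors' deposited tables, and 2 of these gave no adjusted p for it. Senescence in shLuc was at 1.74 ± 0.65 (log2) by the authors' deposited table (adjusted p = 0.0188). The estimates of its group mean there were 9.16 and 9.66, and those of young shLuc cells 2.73 and 1.97. These come from the same libraries as the fold change, in part from that fold change itself, and are no second test of it. Between hairpins in senescent cells it was at -0.63 ± 0.58 in the authors' deposited table and did not pass (adjusted p = 0.426).

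BTG2, an early p53 target of the BTG family, moved further than any other of the 9 genes. Its group means were 11.6 in young and 28.8 in senescent shLuc cells, 257 in young shFbxo22 cells and 1027 in the libraries labelled shFbxo22 senescent. The levels climbed in that order, over an 88.5-fold range, and the young shFbxo22 mean was 8.91 times that of irradiated shLuc cells. These last 2 groups are set against each other in no deposited table. Senescence raised BTG2 by 1.36 ± 0.45 in shLuc and by 1.94 ± 0.13 in the libraries labelled shFbxo22, in log2 units of the authors' deposited tables (adjusted p = 0.00679 and 8.33e-46). Between hairpins it was higher with shFbxo22 by 4.30 ± 0.29 in young cells and 5.08 ± 0.19 in senescent cells in the authors' deposited tables (adjusted p = 9.16e-49 and 7.4e-158). Its shLuc counts are low. Moderation understates the fold changes of such a gene, and so the range of its reconstructed group means, and overstates the lower mean of each pair.

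BTG1, which is known to restrain division in resting cells, had its highest level in irradiated control cells. Group means were 1707 in young and 3856 in senescent shLuc cells, 2411 in young shFbxo22 cells and 3224 in the libraries labelled shFbxo22 senescent. The senescence rise was 1.17 ± 0.09 in shLuc and 0.41 ± 0.10 with shFbxo22 in the authors' deposited tables (log2; adjusted p = 1.03e-35 and 0.000986). With shFbxo22 it was higher in young cells, by 0.49 ± 0.11, and lower in senescent cells, at -0.26 ± 0.09, in the authors' deposited tables (adjusted p = 2.82e-05 and 0.0137). No other of the 9 genes was called lower with shFbxo22. Every neighbouring pair in the order of its 4 group means passed the test.

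BTG3, a BTG protein known to bind the transcription factor E2F1, moved in opposite directions with the 2 hairpins. Group means were 574 in young and 398 in senescent shLuc cells, 567 in young shFbxo22 cells and 979 in the libraries labelled shFbxo22 senescent. Young cells of both hairpins had close group means, and the authors' deposited table gave a log2 difference of -0.03 ± 0.14, which did not pass (adjusted p = 0.877; 95% interval from -0.30 to 0.23). Senescence lowered BTG3 in shLuc, at -0.53 ± 0.13, and raised it in the libraries labelled shFbxo22, by 0.77 ± 0.13, in the authors' deposited tables (adjusted p = 0.000169 and 2.34e-08). In senescent cells the libraries labelled shFbxo22 were higher by 1.29 ± 0.12 in the authors' deposited table (adjusted p = 3.8e-25).

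TOB1, a BTG-domain protein that also binds SMAD factors, was higher in all 4 comparisons. Its group means were 633 in young and 1146 in senescent shLuc cells, 1224 in young shFbxo22 cells and 1774 in the libraries labelled shFbxo22 senescent. Senescent shLuc and young shFbxo22 cells thus had similar group means, a pair that no deposited table tests. The senescence rises were 0.85 ± 0.12 and 0.52 ± 0.10 with shLuc and shFbxo22, as log2 fold changes in the authors' deposited tables (adjusted p = 4.28e-12 and 1.56e-06). Between hairpins TOB1 was higher with shFbxo22 by 0.94 ± 0.11 in young and 0.62 ± 0.11 in senescent cells in the authors' deposited tables (adjusted p = 4.23e-17 and 7.76e-08). The antisense gene TOB1-AS1 reached a base mean of at most 8.78 in the authors' deposited tables. Whether reads from it were counted under TOB1 was not tested.

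Both stress polo kinases were higher with shFbxo22 in both states, and PLK3 was also called higher with senescence under both hairpins. PLK2, a centrosomal kinase induced by p53, had group means of 907 in young and 991 in senescent shLuc cells, 1635 in young shFbxo22 cells and 2191 in the libraries labelled shFbxo22 senescent. Senescence in shLuc gave 0.13 ± 0.11 in the authors' deposited table and did not pass (adjusted p = 0.38; 95% interval from -0.09 to 0.34), while with shFbxo22 it rose by 0.41 ± 0.10 in the authors' deposited table (adjusted p = 0.00044). The hairpin differences were 0.84 ± 0.11 in young and 1.14 ± 0.09 in senescent cells in the authors' deposited tables (log2; adjusted p = 2.36e-12 and 6.79e-35). PLK3, known to be activated by DNA damage, had group means of 255 in young and 359 in senescent shLuc cells, 546 in young shFbxo22 cells and 1175 in the libraries labelled shFbxo22 senescent. It rose with senescence by 0.49 ± 0.15 in shLuc and by 1.08 ± 0.12 with shFbxo22 in the authors' deposited tables (adjusted p = 0.00361 and 1.22e-16). The hairpin differences were 1.06 ± 0.15 in young and 1.70 ± 0.12 in senescent cells in the authors' deposited tables (adjusted p = 4.46e-12 and 1.24e-42).

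**Figure D2:**
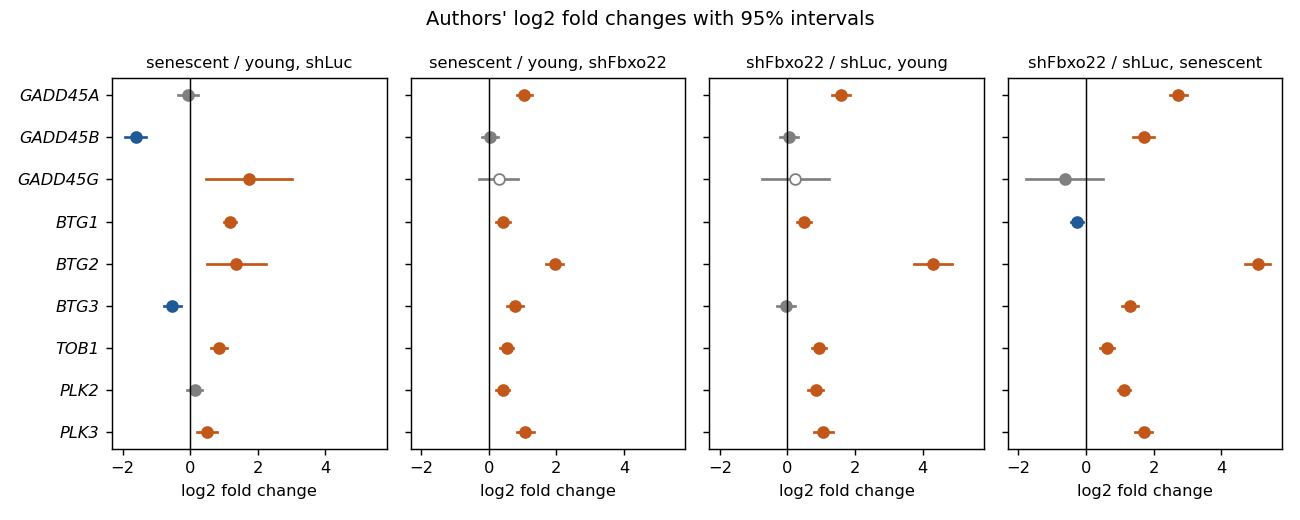
The authors' log2 fold changes of the 9 genes in the 4 comparisons, with 95% intervals (1.96 standard errors); orange was called higher, blue lower, grey did not pass and open points had no adjusted p. In young cells 6 genes were higher with shFbxo22 and GADD45B and BTG3 lay near 0, while in senescent cells 7 were higher and BTG1 was lower.

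Counted over the 9 genes, shLuc senescence called 5 higher and 2 lower by the authors' DESeq2 Wald test. Of the 5, GADD45G and BTG2 had low base means, 5.95 and 18.9. With a base mean of at least 50 required, the count was 3 higher and 2 lower. As background, 42.6% of 21889 genes of the table were called in either direction, 21.2% higher and 21.3% lower. The median log2 fold change was 0.49 for the 9 genes and -0.0031 for all genes tested. Among genes whose base mean reached 200, 64.5% were called, so the count of the 9 genes in either direction stands beside a high background. With shFbxo22, senescence called 7 of 8 tested genes higher, and GADD45B, the other one, was near no change. Here 17.7% of 18758 genes were called, 8.16% higher and 9.57% lower, and 11.5% of those at a base mean of 200 or more were higher. The median was 0.65 for the 8 genes and 0.0014 for all genes tested.

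Between hairpins in young cells, 6 of 8 tested genes were called higher with shFbxo22, and GADD45B and BTG3 did not pass. The background was 35.9% of 20082 genes, 18.7% higher and 17.3% lower, with 26.0% higher at a base mean of 200 or more. The median log2 fold change was 0.89 for the 8 genes and -0.01 for all genes tested. In senescent cells 7 of 9 were called higher and 1 lower. The background was 40.1% of 22788 genes, 20.2% higher and 19.9% lower, with 30.1% higher at a base mean of 200 or more. The median was 1.29 for the 9 genes and -0.0089 for all genes tested. Every comparison shares a group with 2 of the others, so these counts are not independent of each other.

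Whether the response from young to senescent cells differed between the 2 hairpins was tested on the difference of the 2 log2 fold changes, shFbxo22 less shLuc. Radiation and the senescent state cannot be told apart in it. Of the 8 genes tested, 4 had a more positive and 1 a more negative response with shFbxo22, where 37.0% of 18598 genes passed in either direction, 18.8% in the positive and 18.1% in the negative one. Of genes whose base mean reached 200 in both tables, 50.4% passed. The median difference was 0.59 for the 8 genes and 0.03 for all genes tested. GADD45B had the largest difference, 1.66 ± 0.21 (z test, adjusted p = 1.77e-14). BTG3 differed by 1.30 ± 0.18 (z test, adjusted p = 9.22e-12) and GADD45A by 1.11 ± 0.19 (z test, adjusted p = 6.75e-08). PLK3 differed by 0.59 ± 0.19 (z test, adjusted p = 0.00806). BTG1 went the other way, at -0.76 ± 0.14 (z test, adjusted p = 3.39e-07).

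For the remaining 3 tested genes the difference did not pass, which does not show equal responses. TOB1 was at -0.33 ± 0.15 (z test, adjusted p = 0.0791; 95% interval from -0.63 to -0.03). PLK2 was at 0.29 ± 0.15 (z test, adjusted p = 0.116; 95% interval from -0.0017 to 0.57). BTG2 was at 0.58 ± 0.47 (z test, adjusted p = 0.353), and its 95% interval from -0.33 to 1.496 is the widest of the 8. Taken from the 2 hairpin comparisons, its difference was 0.78 ± 0.34 and did not pass either (z test, adjusted p = 0.0648). The largest standard error was 0.697 for senescence in shLuc and 0.333 for senescence in shFbxo22. The part of unequal moderation in these differences was not tested. GADD45G was left out of this test because the authors' deposited table for senescence in shFbxo22 gives it no adjusted p.

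**Figure D3:**
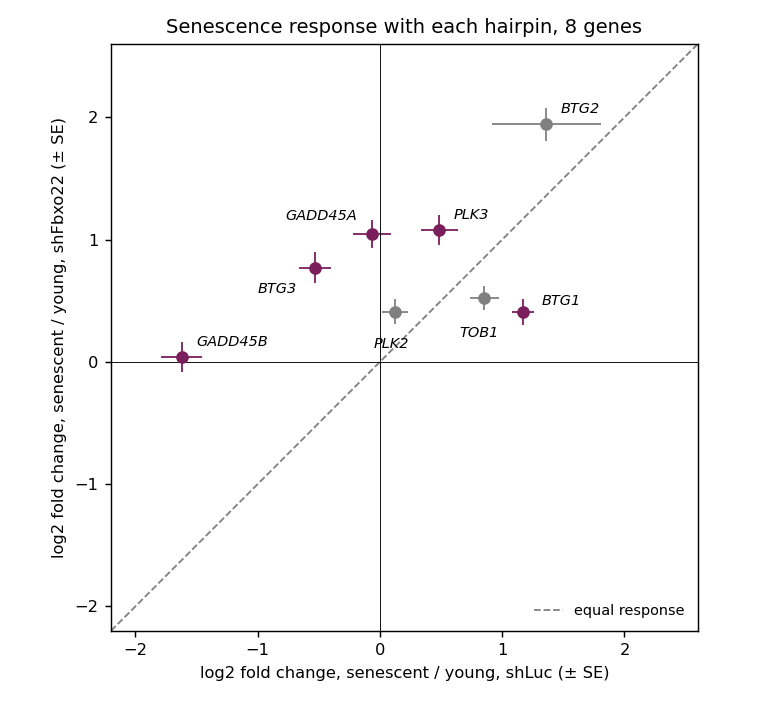
Senescence log2 fold change with shFbxo22 (y axis) against that with shLuc (x axis) for the 8 genes tested, with standard errors of the authors' deposited tables; purple points passed the test of the difference and the dashed line marks equal responses. GADD45B, BTG3, GADD45A and PLK3 lie above the line and BTG1 below it.

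The relatives of these genes did not all move with them. The mitotic kinases PLK1 and PLK4, which drive mitosis and centriole duplication, were called lower in all 4 comparisons, while PLK2 and PLK3 were called lower in none of them. PLK1 was at a log2 value of -4.65 ± 0.13 for senescence in shLuc and -2.23 ± 0.12 between hairpins in young cells in the authors' deposited tables (adjusted p = 8.45e-288 and 1.55e-79). PLK4 was at -2.82 ± 0.15 and -2.37 ± 0.14 in the same authors' deposited tables. PLK1 with senescence in shFbxo22 was at -3.57 ± 0.16 in the authors' deposited table. TOB2, the closest relative of TOB1, was 0.25 ± 0.09 higher with senescence in shLuc and lower with senescence in shFbxo22, at -0.59 ± 0.10, in the authors' deposited tables (adjusted p = 0.0188 and 4.26e-07). In senescent cells TOB2 was lower in the libraries labelled shFbxo22, at -0.71 ± 0.09 in the authors' deposited table (adjusted p = 1.15e-13), where TOB1 was higher.

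The deadenylase genes were counted because BTG and TOB proteins bind CCR4-NOT. Besides CCR4-NOT genes the list holds PAN2 and PAN3, of another deadenylase, and the poly(A)-binding protein gene PABPC1. Of the 14 tested genes, senescence in shLuc called 2 higher and 3 lower, and senescence in shFbxo22 1 higher and 2 lower. The catalytic subunit gene CNOT6L was at 0.57 ± 0.12 and RQCD1, encoding a core subunit, at -0.55 ± 0.09 in shLuc, while the catalytic subunit gene CNOT6 was at 0.69 ± 0.13 and RQCD1 at -0.43 ± 0.10 with shFbxo22, as log2 fold changes in the authors' deposited tables. Young cells had 2 higher and 2 lower with shFbxo22, with the poly(A)-binding protein gene PABPC1 at 0.44 ± 0.10 and CNOT6L at 0.40 ± 0.14 by the authors' deposited table. In senescent cells 7 of the 14, PABPC1 among them, were higher in the libraries labelled shFbxo22 and the other 7 did not pass. CNOT6 was at 0.94 ± 0.14 and CNOT4, a ubiquitin ligase subunit, at 0.54 ± 0.12 in the authors' deposited table. Over all genes tested, 42.6%, 17.7%, 35.9% and 40.1% were called in these comparisons. All 14 genes had a base mean above 200. Among genes that reached 200, 64.5% were called in shLuc senescence and 30.1% were higher between hairpins in senescent cells. The median log2 fold change of the 14 genes was -0.19, -0.02, 0.10 and 0.15 in the comparisons in the order given.

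Of the other proteins that recruit CCR4-NOT, ZFP36 and ZFP36L1, which bind AU-rich messages, had genes that rose in shLuc senescence by 0.76 ± 0.10 and 1.41 ± 0.08 (log2) in the authors' deposited table. Both were lower in the libraries labelled shFbxo22 senescent than in shLuc senescent cells, at -1.14 ± 0.10 and -0.99 ± 0.08 by the authors' deposited table (adjusted p = 6.46e-28 and 3.09e-33). With senescence in shFbxo22, ZFP36L2 was at -0.47 ± 0.11 and ZFP36 at -0.42 ± 0.12, and in young cells ZFP36L1 was 0.65 ± 0.09 higher with shFbxo22 and the silencing factor gene TNRC6A at -0.34 ± 0.09, in the authors' deposited tables. Over the 12 listed adaptors, 3 were higher and 1 lower in shLuc senescence, 2 and 2 of 10 tested in shFbxo22 senescence, 1 and 1 of 10 between hairpins in young cells, and 1 and 3 of 12 between hairpins in senescent cells. Their medians were 0.11, 0.05, 0.04 and -0.0031 on the log2 scale. The background of all genes tested was 42.6%, 17.7%, 35.9% and 40.1% called in either direction. For shLuc senescence it was 64.5% among genes whose base mean reached 200.

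Of 11 kinase genes on the p38 and JNK arm, 3 were higher and 2 lower with senescence in shLuc, 3 and 1 with senescence in shFbxo22, 1 and 2 between hairpins in young cells, and 4 and 4 in senescent cells. Their median log2 fold changes were 0.03, 0.13, -0.08 and -0.26. As background, 42.6%, 17.7%, 35.9% and 40.1% of all genes tested were called in either direction in these comparisons. The share in shLuc senescence was 64.5% among genes whose base mean reached 200. MAP3K4, the kinase that GADD45 proteins bind, rose by 0.63 ± 0.12 and MAPK8, encoding JNK1, was at -0.63 ± 0.12 in shLuc senescence in the authors' deposited table. With senescence in shFbxo22, MAPK12 was at -0.44 ± 0.14 and MAP2K4 at 0.43 ± 0.12 in the authors' deposited table. In young cells MAPK8 was at -0.64 ± 0.14 and MAPK12 at -0.36 ± 0.14 with shFbxo22 in the authors' deposited table. MAP2K3 and MAPK11, an activator and an isoform of p38, were higher by 0.93 ± 0.12 and 0.87 ± 0.17 in the libraries labelled shFbxo22 senescent in the authors' deposited table. In the same comparison MAP3K4 was lower, at -0.83 ± 0.10, and so was MAPK12, at -0.85 ± 0.13, by the authors' deposited table (adjusted p = 2.32e-14 and 1.09e-10), a pair named after their values were seen.

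Of 9 tested genes for other partners, 2 were higher and 6 lower in shLuc senescence, 3 and 2 in shFbxo22 senescence, 3 and 4 between hairpins in young cells, and 4 and 2 in senescent cells. Their median log2 fold changes were -0.68, 0.12, -0.29 and 0.18. The shares of all genes tested called in either direction were 42.6%, 17.7%, 35.9% and 40.1%. At a base mean of 200 or more, 64.5% were called in shLuc senescence. CDK1 and CCNB1, the mitotic kinase and cyclin that GADD45 proteins bind, were at -2.65 ± 0.15 and -4.12 ± 0.10 in shLuc senescence in the authors' deposited table. CCNB1 was at -2.68 ± 0.12 in shFbxo22 senescence, and CDK1 at -2.25 ± 0.16 between hairpins in young cells, in the authors' deposited tables. PCNA was higher by 2.17 ± 0.10 in the libraries labelled shFbxo22 senescent than in shLuc senescent cells in the authors' deposited table (adjusted p = 1.98e-113). It was also higher with senescence in shFbxo22, by 1.10 ± 0.09 in the authors' deposited table. PCNA was lower with senescence in shLuc, at -1.63 ± 0.10, and between hairpins in young cells, at -0.58 ± 0.10, by the authors' deposited tables (adjusted p = 6.85e-53 and 1.23e-07). CDKN1A, encoding p21, ordered the 4 groups as BTG2, PLK2, PLK3 and TOB1 did. Its group means were 703, 3065, 16560 and 85966 in young shLuc, senescent shLuc, young shFbxo22 and labelled shFbxo22 senescent libraries. MKI67, a marker of dividing cells, had group means of 8448, 778, 1564 and 117 in the same libraries, highest in young shLuc cells and lowest in the libraries labelled shFbxo22 senescent.

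Transcription factors reported to act on these families gave 15 tested genes, with median log2 fold changes of 0.54, -0.05, 0.19 and -0.40 in the 4 comparisons. Senescence in shLuc called 8 higher and 3 lower, with DDIT3, a stress factor gene, at 1.95 ± 0.11 and FOXO4 at 1.86 ± 0.15 in the authors' deposited table. Senescence in shFbxo22 called 2 higher and 4 lower, and the authors' deposited table gave 0.70 ± 0.14 for EGR1, an immediate early gene, and -1.35 ± 0.16 for BRCA1, a DNA repair gene. Between hairpins 6 were higher and 1 lower in young cells, and the authors' deposited table gave 1.17 ± 0.16 for FOXO4 and -1.89 ± 0.12 for BRCA1. In senescent cells 2 were higher and 9 lower, and the authors' deposited table gave -1.61 ± 0.09 for DDIT3 and -1.67 ± 0.16 for BRCA1. The background of all genes tested was 42.6%, 17.7%, 35.9% and 40.1% called in either direction in these comparisons. In shLuc senescence it was 64.5% among genes whose base mean reached 200.

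**Figure D4:**
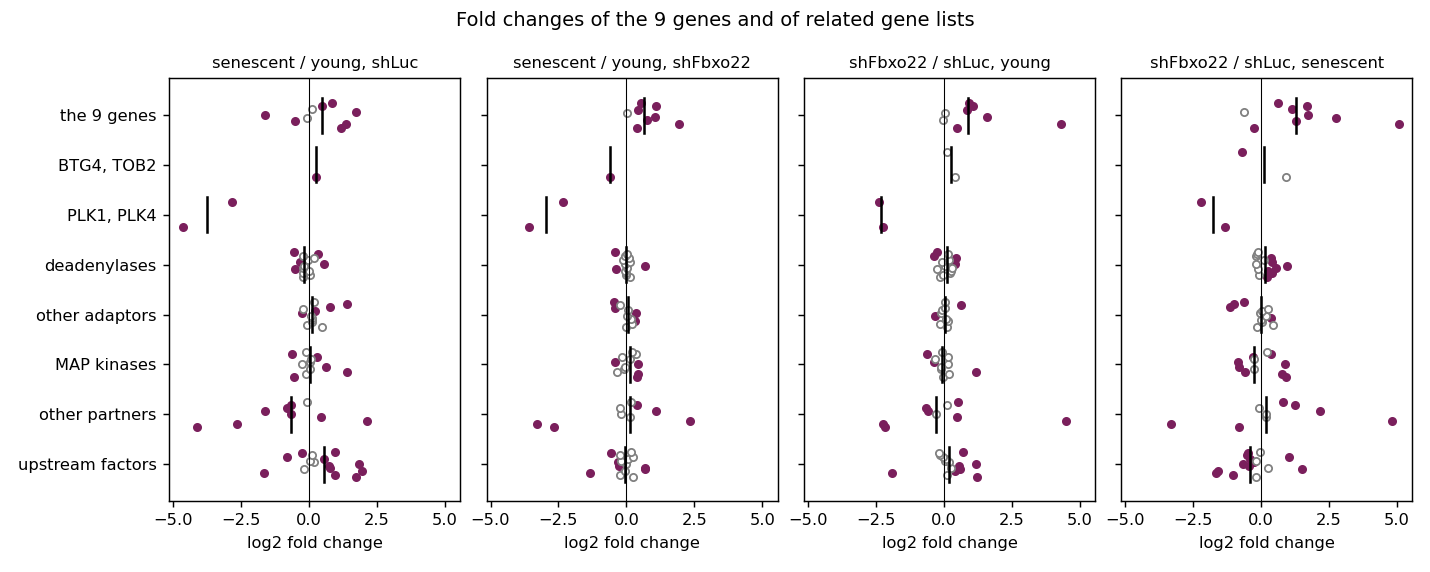
Log2 fold changes in the 4 comparisons for the 9 genes and for 7 lists of related genes; each point is a tested gene, filled where its adjusted p was under 0.05, and the bar is the median. In the senescent hairpin comparison the median of the 9 genes is 1.29 and that of the upstream factors -0.40.

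The genes with the most similar pattern over the 4 groups were sought among 9109 genes whose base mean reached 200 in every table, as the smallest Euclidean distance between centred log2 group means. For PLK3 these were BLOC1S2, ABTB2 and CCNG1, a cyclin gene known as a p53 target, at distances of 0.072, 0.10 and 0.17. GADD45A had APOBEC3C, OSBPL3 and TRIAP1 nearest, at 0.42, 0.44 and 0.45, farther than for the other genes. PLK2 was nearest to STX6, VDR and OBFC1, each at 0.16. For TOB1 the nearest were DHRS7 at 0.037, FAM229B at 0.14 and GM2A at 0.16. BTG1 had RAB27B, RND3 and TBC1D8B nearest, at 0.043, 0.073 and 0.077. GADD45B had CCRN4L, which encodes the clock-controlled protein nocturnin, at 0.067, USB1 at 0.10 and ATP1B1 at 0.11. BTG3 was nearest to CLP1, SLC35D1 and RUSC2, at 0.096, 0.10 and 0.15. None of these 7 genes was among the 3 nearest of another. BTG2 and GADD45G were too low in at least 1 table to be searched for or to be candidates. With 4 groups, such distances describe levels only.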

How the data were processed

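RNA of 12 libraries (4 groups of 3) was compared in 4 tables of the authors' own comparisons, which hold no values per library. Per the submitters' processing notes, R 3.2.2, DESeq2 1.14.1, STAR 2.3.0 and Bowtie2 2.0.0 were used, with the build named as hg19 and as GRCh37. Their roles are not given in the sources used here. Per the file headers, the columns are a base mean (a signal, the authors' mean normalized count over 6 libraries), the authors' log2 fold change with its standard error, a deposited Wald score, and the deposited p-value and adjusted p-value. The largest standard error was 0.697, also among genes with few reads, as moderated fold changes have.

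Of 55765 rows per table, 28 with dates as symbols were left out. The sign of each table was settled from the numbers. Of 16 choices, the 1 taken brought both estimates of the group means closest on average (mean absolute log2 difference 0.00918 over 9109 genes, next 0.131). This choice kept the sign of the shLuc and young-cell tables and turned the other 2. A group mean follows from a base mean and a fold change. Calls are the authors' adjusted p under 0.05 over all genes tested. The difference of the 2 senescence responses was tested as a z from the authors' standard errors, with Benjamini-Hochberg adjustment over 18598 genes, and the script was tested on simulated data. Python 3.11.15, SciPy 1.17.1 and pandas 2.3.3 were used. Base means sum to between 21924890 and 21941906 per table, and depth per library is unknown. Named genes were the 9 members whatever their values, in each related list the 2 called genes of largest fold change with a base mean of at least 200, the 3 genes of most similar pattern, and FBXO22, CDKN1A and MKI67. The members and lists were chosen with earlier results of these data known, and the promoter motifs after the promoters had been read. Alternatives changed the threshold, the genes adjusted over, the filter, the centring, the least fold change, the tables and the standard errors.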

Additional observations from a re-analysis of the deposited data

Results flagged for a closer look

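For 5 of the 8 genes tested, the log2 response to senescence differed between the hairpins by the z test described above, and each is listed here for that reason. The response in the libraries labelled shFbxo22 minus that in shLuc was 1.66 for GADD45B, 1.30 for BTG3, 1.11 for GADD45A, 0.59 for PLK3 and -0.76 for BTG1. The background was high: 37.0% of the genes tested passed the same test, and 50.4% of those whose base mean reached 200 in both tables. All 5 differences draw on the 4 groups together. These include the libraries labelled shFbxo22 senescent, in which the FBXO22 transcript was higher than in shLuc senescent cells.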

How the results depend on the processing

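A required log2 fold change of at least 1 lowered the members called from 7 to 4 for senescence in shLuc, from 7 to 3 for senescence in shFbxo22 and from 6 to 3 for the hairpins in young cells. The other alternatives left each count of members within 1.5 times its main value. BTG1 between hairpins in senescent cells and GADD45G in shLuc senescence did not pass a threshold of 0.01 (adjusted p = 0.0137 and 0.0188, DESeq2 Wald test), and the PLK3 difference of responses did not pass with standard errors multiplied by 1.5 (adjusted p = 0.149). Of 206 recomputed values of single genes, 191 kept direction and call and 15 kept direction only. Most alternatives reuse the same fold change, so direction could not change under them. Genes that a filter dropped, such as GADD45G and BTG2 in shLuc senescence, are not among these values. Leaving out single libraries was not run for the reason given next. No paired analysis was possible because values per library are not in the tables and the columns carry no replicate numbers. Low counts limit GADD45G in all 4 groups and BTG2 in shLuc cells.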
